A study of Homo sapiens with 21 samples.

Results

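K562 is an established human erythroleukemic line, and its control cultures in a pair of enhancer RNA experiments were compared here with one another. The control libraries were chosen by their labels, and no measured value was used to choose them. There were 6 of them among the 21 libraries of the series. The 3 libraries of the 34kn experiment carry the genotype label 34knContol, the 3 of the 34kp experiment the label 34kpContol, and the descriptions of all 6 begin with WT. The experiments belong to a study of an enhancer that lies 34 kb upstream of MYB, the gene of a transcription factor of blood progenitors, and that gives rise to a pair of enhancer RNAs (eRNAs). Each experiment also holds 3 libraries in which its own eRNA was overexpressed, labelled 34kn and 34kp, and in the controls neither was. All 12 cultures were grown in RPMI medium with 10% serum, and libraries were made with a TruSeq RNA kit from 1 µg of total RNA extracted with TRIzol. The labels do not say what vector the controls carried, if any, how many passages they had, when they were grown or whether replicates were separate cultures. The p-values below thus speak only to how far these libraries scatter, and that scatter may be technical. Experiment and culture are confounded: each control group belongs to 1 experiment, so anything that differed between the experiments (culture, passage, handling, library making or sequencing) cannot be told apart from anything else that did.

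As background, K562 cells come from a chronic myeloid leukaemia in blast crisis. They carry the BCR-ABL1 fusion kinase, which signals through STAT5 and the MAP kinases. They are arrested at a progenitor stage with access to several blood lineages: they make embryonic and fetal haemoglobins, can be driven to more erythroid or more megakaryocytic states, and keep traces of a granulocytic program. Lines kept as separate cultures are known to drift apart in expression, and growth stage and nutrients move stress, lipid and immediate early genes. Passage and growth stage are not recorded in the labels.

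What was measured was the number of reads over each exon bin, a bin being a stretch of exon that is used by the same set of transcripts. Bin counts were summed per gene, and levels are given as CPM, counts scaled to a common library size, after TMM scaling for depth and composition. A difference is called where edgeR's quasi-likelihood test gives a Benjamini-Hochberg adjusted p below 0.05 over all genes tested. Differences are log2 fold changes, 34kp control minus 34kn control, with the model's standard error (SE) and n = 3 libraries a group, so a positive value means a higher level in the 34kp controls. CPM values of different genes are not corrected for length and are not set against each other.

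Bin counts summed to between 36765581 and 40205566 in the 6 control libraries. In every pair of replicate controls the counts scattered beyond sampling noise, the chi-square divided by its degrees of freedom being 5.54 to 41.5. The first 34kn control stood apart from its replicates. It held 3.43% of its counts in genes whose longest transcript is under 1000 bases, against 2.99% to 3.19% in the other 5 controls. Mitochondrially encoded genes held 1.32% of its counts, against 1.59% to 2.36%. Both shares leave out names that join several genes. With such names included, the list of mitochondrially encoded genes summed to 24332 CPM in that library and to 28492 to 37761 CPM in the other 5. Some results that rest on the first 34kn control are given below with and without it. Others are given only with it, so a single value may still rest in part on this library. The groups also differed as libraries. Reads outside annotated bins made up 29.5% to 29.96% of the counted items in the 34kn controls and 31.1% to 31.8% in the 34kp controls, reads of low alignment quality 8.94% to 10.5% and 7.14% to 8.35%, and genes with a count above 0 numbered 23051 to 23608 and 24239 to 24407.

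Markers of the line were present in both groups. GATA1, the master regulator of the erythroid lineage, was read at 188 ± 22.1 CPM in the 34kn controls and 152 ± 13.1 CPM in the 34kp controls (mean ± SD, n = 3). TFRC, the transferrin receptor of haemoglobin-making cells, was read at 657 ± 38.2 and 1014 ± 35.4 CPM. Among 7 listed genes of the BCR-ABL1 fusion and its neighbourhood in K562, XKR3, a partner of NUP214 in another fusion of this line, alone was called, with a difference of 0.41 (SE 0.14, adjusted p = 0.0354), and that call was lost without any 1 of 5 of the 6 libraries.

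**Figure D1:**
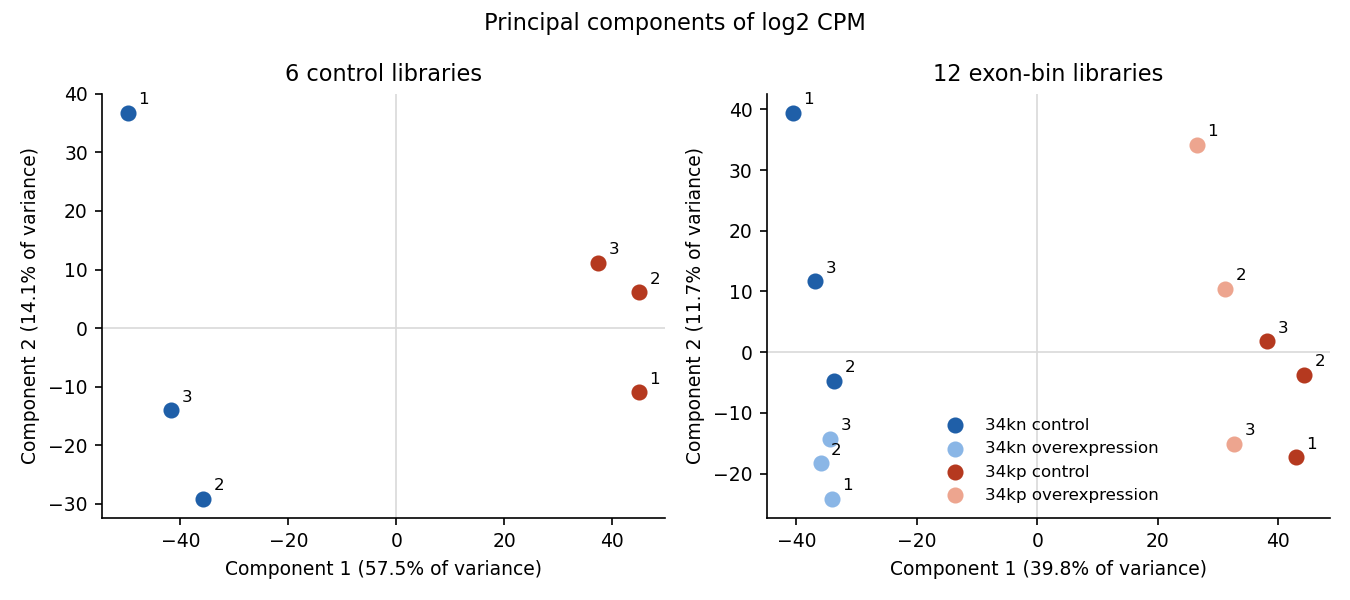
Principal components of log2 CPM for the 6 control libraries (left) and for all 12 exon-bin libraries (right), with each point 1 library and its replicate number beside it. The first component held 57.5% of the variance over the controls and separated 34kn from 34kp, and the first 34kn control lay at 36.8 on the second.

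The control cultures differed in a large part of the genes measured. Of 16560 genes tested, 6263 were called (37.8%), 3260 of them higher in the 34kp controls (19.7%) and 3003 lower (18.1%). In 50.7% of the tested genes the 3 values of one group did not overlap the 3 of the other. These shares over all genes are the ones to set beside the counts of list members below. The median size of the called differences was 0.54 on the log2 scale, against 0.31 over all genes tested, and 1290 genes (7.79%) were both called and at least 2-fold apart. Of these, 1010 were higher in the 34kp controls and 280 lower. The filter on low counts keeps genes that are read in 1 group alone, and the part of such genes in these counts was not tested. When the test was set against a fold of 1.2 instead of no change, 3016 genes were called. In the principal component analysis over 12 libraries, the first component held 39.8% of the variance and set all 6 libraries of the 34kn experiment apart from all 6 of the 34kp experiment, whether the eRNA was overexpressed or not.

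The difference moved with the base composition and length of the genes. With genes ranked by GC content into 5 bands, the median log2 fold change was 0.24 in the lowest band and -0.14 in the highest. Ranked by length, it was -0.11 in the shortest band and 0.13 in the longest. Between the overexpression libraries the GC medians ran otherwise, 0.04 in the lowest and 0.18 in the highest band, while the length medians ran the same way over a smaller range, -0.02 in the shortest and 0.04 in the longest. After a GC trend was fitted and taken out in each library, 6246 genes were called. That total does not say whether the same genes were called. Among the results for the gene lists used below, 98 then stayed the same, 27 moved, 7 were weaker and 9 stronger. The part of composition in any single result below was not tested beyond that.

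The largest rise by the naming rule was that of TCN1. It encodes haptocorrin, a vitamin B12 carrier stored in the secondary granules of neutrophils. TCN1 was read at 0.259, 0.745 and 0.250 CPM in the 34kn controls and at 16.9, 17.7 and 16.4 CPM in the 34kp controls. All 3 libraries of one group were far below all 3 of the other, with a log2 fold change of 5.33 (SE 0.26, adjusted p = 3.22e-08).

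CD24, a small glycosylated surface protein of immature blood and epithelial cells, was read at 1.04, 1.33 and 0.972 CPM against 33.3, 33.8 and 26.4 CPM. Its log2 fold change was 4.80 (SE 0.16, adjusted p = 7.07e-10). MS4A3 is a membrane protein of granulocyte progenitors. Its levels were 2.31, 3.23 and 3.81 CPM against 73.9, 75.2 and 69.1 CPM, a log2 fold change of 4.55 (SE 0.15, adjusted p = 6.30e-10). FAM178B gave 7.75, 8.04 and 8.83 CPM against 87.2, 101 and 111 CPM and a log2 fold change of 3.60 (SE 0.11, adjusted p = 6.30e-10). No library of the 34kp controls came near those of the 34kn controls for any of the 4 genes. Among the 12 largest rises by the naming rule were also ID3, an inhibitor of basic helix-loop-helix transcription factors (3.09), COL1A1, a chain of type I collagen (3.04), and LRP1, an endocytic receptor (3.01).

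In the list of granulocytic and monocytic genes 12 members passed the filter on low counts, and 9 of these were called higher in the 34kp controls and 0 lower, with a median of 1.48. Of the 9, CSF3R, CEBPE, CD14, PRTN3, AZU1 and ITGAM had group means below 2 CPM, and some passed the filter only through the 34kp controls, which by itself favours higher calls, so this count and median are a description only. With a minimum of 5 CPM 3 members were called higher, SPI1, LYZ and CD33. The summed level of the list was 44.5 to 49.5 CPM in the 34kn controls and 82.5 to 91.01 CPM in the 34kp controls. SPI1, which encodes the myeloid master regulator PU.1, was read at 17.5, 14.3 and 15.8 CPM and 31.1, 31.9 and 35.9 CPM. Its groups did not overlap, and they differed on the log2 scale by 1.06 (SE 0.11, adjusted p = 1.46e-05). LYZ, the lysozyme of granules, differed by 0.81 (SE 0.11, adjusted p = 1.04e-04), and CD33, a sialic acid receptor of myeloid cells, by 0.72 (SE 0.12, adjusted p = 5.94e-04). The largest fold changes of the list belonged to genes of very low level, named here after their values were seen. CSF3R, the receptor for granulocyte colony-stimulating factor, was read at 0.0259, 0.0513 and 0.111 CPM against 2.44, 1.94 and 1.32 CPM (4.88), and CEBPE, a factor of late granulocyte maturation, at 0.0519, 0.0513 and 0.0278 CPM against 0.261, 0.533 and 0.294 CPM (2.96). The granule proteases ELANE and CTSG and the calgranulin S100A8, defining markers of promyelocytes and neutrophils, were at 0 in all 6 libraries. In bulk RNA a higher share of cells of a kind and more RNA per cell cannot be told apart.

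Haemoglobin genes went the other way. Of the 7 tested members of that list 6 were called lower in the 34kp controls and 0 higher, with a median of -1.28 (-1.13 without the first 34kn control). HBA2 and HBA1 encode the same α-globin and differ in a few bases outside the coding sequence, so reads can be split between them. HBA2 was read at 303, 177 and 207 CPM in the 34kn controls and 86.9, 82.1 and 97.3 CPM in the 34kp controls. The first 34kn control was the highest, and the groups did not overlap. Its log2 fold change was -1.36 (SE 0.17, adjusted p = 2.95e-04), and -1.12 without the first 34kn control (adjusted p = 7.24e-07). HBA1 was read at 30.4, 35.3 and 29.1 and 14.96, 11.6 and 12.3 CPM, a log2 fold change of -1.28 (SE 0.12, adjusted p = 7.67e-06). AHSP, the chaperone that holds free α-globin, gave a log2 fold change of -1.12 (SE 0.14, adjusted p = 6.78e-05).

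The embryonic and fetal globins that dominate in this line overlap other genes in the annotation and were deposited under joined names, which the naming rule passes over. They are given here after their values were seen. The name that joins HBZ, the embryonic ζ-globin gene, with HBM and the pseudogene HBZP1 was read at 931, 1073 and 1013 CPM against 409.8, 397 and 429.8 CPM. That is a log2 fold change of -1.28 (SE 0.07, adjusted p = 8.57e-08), and all 3 libraries of one group lay below all 3 of the other. The name that joins HBE1, HBG1 and HBG2, the embryonic and fetal β-type genes, with TRIM5, OR51B5 and unnamed genes was read at 10804, 9709 and 10346 CPM against 6491, 5994 and 6359 CPM. Its log2 fold change was -0.71 (SE 0.07, adjusted p = 8.53e-06), and this sum cannot be assigned to single genes. HBQ1, the θ-globin gene, was the 1 tested member of the list that was not called, at -0.18 (SE 0.17, adjusted p = 0.409).

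**Figure D2:**
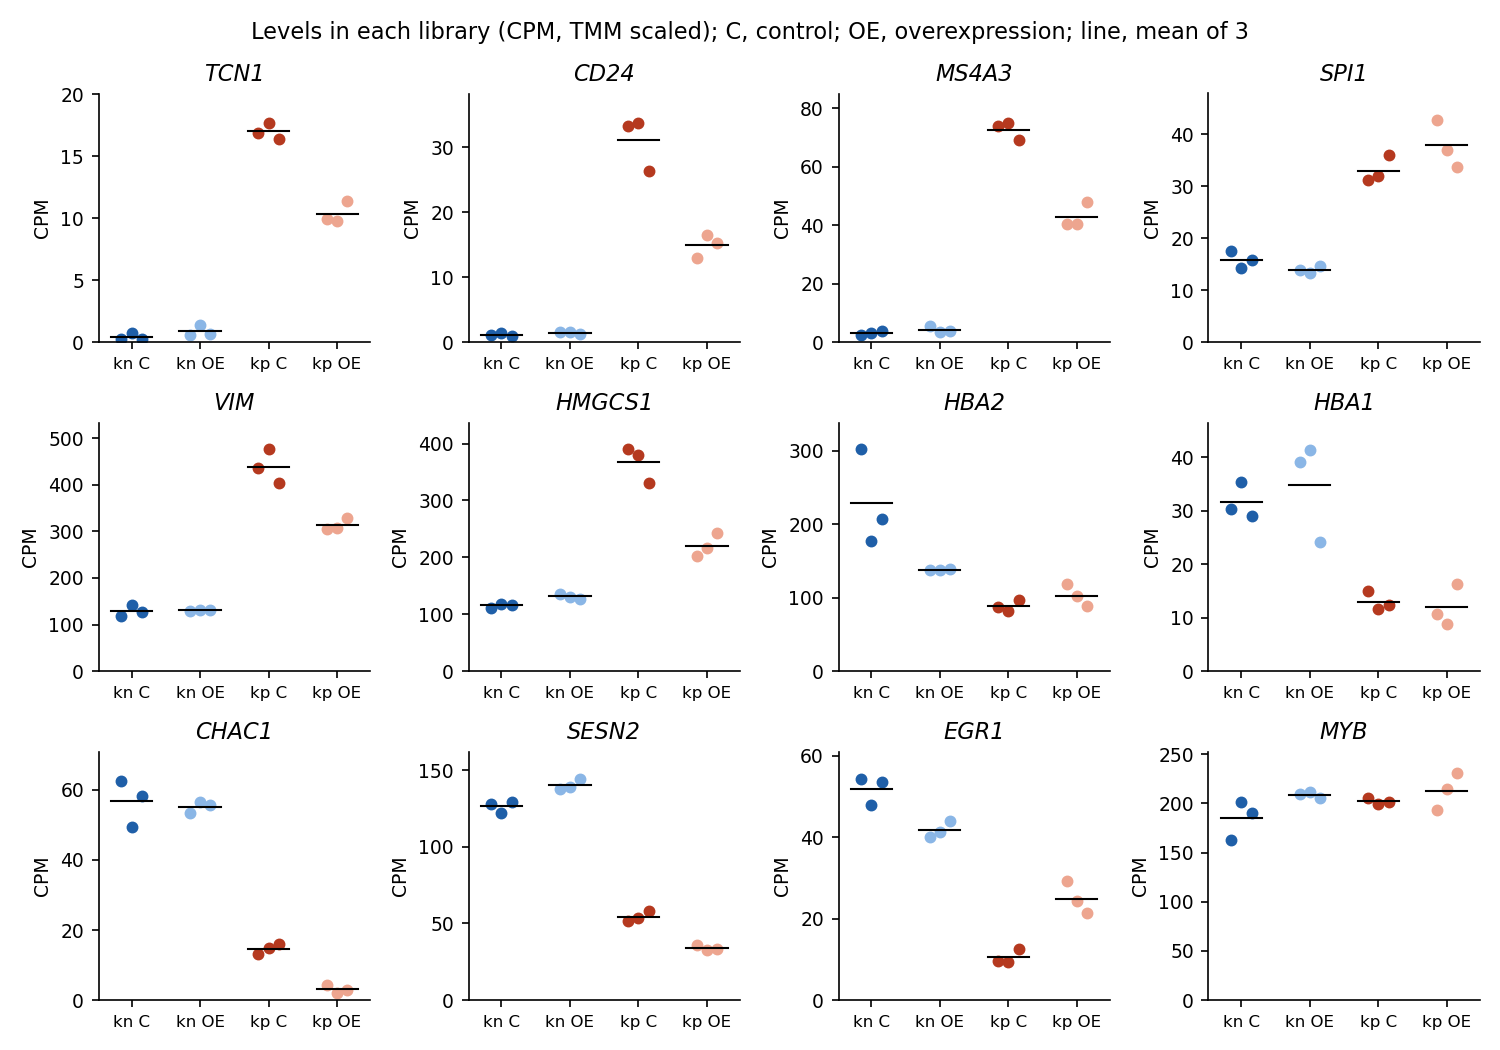
Levels of 12 genes in each of the 12 exon-bin libraries, in CPM on linear axes from 0, with a point for each library and a line at the mean of 3. The 34kp controls (kp C) lie above the 34kn controls (kn C) for TCN1, CD24, MS4A3, SPI1, VIM and HMGCS1 and below them for HBA2, HBA1, CHAC1, SESN2 and EGR1, while the groups overlap for MYB.

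The rest of the erythroid program did not follow the globins as a whole. Of 14 tested genes of haem synthesis and export 4 were called higher and 2 lower, and of 15 genes of iron uptake and storage 6 were higher and 2 lower. UROD, a decarboxylase of the haem pathway, was read at 1004, 803 and 852 CPM in the 34kn controls and 428, 449.8 and 489 CPM in the 34kp controls, a log2 fold change of -0.96 (SE 0.09, adjusted p = 6.23e-06). SLC25A37, the mitochondrial iron importer, was higher by 0.46 (SE 0.07, adjusted p = 1.87e-04), and TFRC by 0.63 (SE 0.07, adjusted p = 2.66e-05). The iron exporter SLC40A1 was higher by 0.54 (SE 0.10, adjusted p = 0.00108), and the biliverdin reductase BLVRB was lower, at -0.43 (SE 0.09, adjusted p = 0.00335). Without the first 34kn control BLVRB differed by -0.31 (adjusted p = 0.00203). Haem enzymes and iron carriers moved in both directions.

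Of 21 tested red cell membrane and blood group genes 6 were called higher and 8 lower, with a median of -0.01. SLC4A1, the anion exchanger band 3, differed by -0.76 (SE 0.13, adjusted p = 6.06e-04), the blood group protease KEL by -0.68 (SE 0.07, adjusted p = 2.85e-05), and RHD, which is nearly identical to RHCE so that reads can be split between them, by 0.70 (SE 0.09, adjusted p = 1.01e-04). Of 16 tested erythroid transcription factors 1 was called higher and 3 lower. GATA1 was lower by a small amount, -0.30 (SE 0.09, adjusted p = 0.0223), a call lost with the GC trend removed (-0.15, adjusted p = 0.0608) or without any of 3 libraries, and its cofactor ZFPM1 (FOG1) was higher by 0.61 (SE 0.10, adjusted p = 7.38e-04).

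Platelet-lineage genes leaned upward. Of 10 tested megakaryocyte and platelet genes 5 were called higher in the 34kp controls and 1 lower, with a median of 0.39. ITGA2B, the α-chain of the platelet fibrinogen receptor (CD41), was read at 12.3, 11.3 and 11.1 CPM and 19.1, 18.7 and 19.6 CPM. The groups did not overlap and they differed on the log2 scale by 0.73 (SE 0.10, adjusted p = 2.04e-04). SRGN, the core protein of granule proteoglycan, differed by 0.51 (SE 0.07, adjusted p = 1.68e-04), and F2R, the thrombin receptor PAR1, by 0.51 (SE 0.10, adjusted p = 0.00162). SELP and TREML1, membrane proteins of mature platelets, were at 0 in all 6 libraries.

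MYB itself, the gene the enhancer belongs to, was not called. It was read at 162, 202 and 189.8 CPM in the 34kn controls and 206, 199 and 202 CPM in the 34kp controls. The first 34kn control was the lowest of the 6 and the second lay within the range of the 34kp controls. The log2 fold change was 0.13 (SE 0.08, 95% interval -0.03 to 0.30, adjusted p = 0.22). Without the first 34kn control it was 0.05 (adjusted p = 0.613). When only the bin with the most counts stood for the gene, MYB was called higher at 0.57 (adjusted p = 3.20e-04), so this result depends on which part of the gene is read. Its neighbour HBS1L gave 0.23 (SE 0.08, adjusted p = 0.0333), and 0.01 with the GC trend removed (adjusted p = 0.948). The HBS1L call was also lost without 34kn control 1 or 3 (adjusted p of 0.0680 and 0.0848). It was lost as well without 34kp control 1, 2 or 3 (0.0738, 0.122 and 0.0798), and by the bin with the most counts (0.166). AHI1 gave 0.23 (adjusted p = 0.0826). Neither eRNA was measured here as a gene. Among 16 tested genes reported elsewhere as MYB targets 3 were called higher and 7 lower. MYC was read at 396, 389.7 and 392 CPM against 235, 250.01 and 252 CPM, a log2 fold change of -0.67 (SE 0.07, adjusted p = 1.06e-05).

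The list of ATF4 and amino acid stress was among the most one-sided. ATF4 is a transcription factor whose translation rises when amino acids run short or the endoplasmic reticulum is stressed, and it switches on amino acid transporters and synthesis enzymes. Of 26 tested members 21 were called lower in the 34kp controls and 0 higher, with a median of -0.67. In 21 of the 26 the groups did not overlap, against 50.7% of all genes tested. The summed level of the list was 4639.97 to 4729 CPM in the 34kn controls and 2966 to 3007 CPM in the 34kp controls.

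GDF15, a secreted stress hormone, was read at 118, 96.6 and 98.3 CPM in the 34kn controls and 26.1, 29.2 and 24.4 CPM in the 34kp controls. Its log2 fold change was -1.97 (SE 0.10, adjusted p = 4.10e-08). CHAC1, which breaks down glutathione, was read at 62.7, 49.3 and 58.4 CPM against 13.04, 14.9 and 16.04 CPM, a log2 fold change of -1.95 (SE 0.11, adjusted p = 1.14e-07). In both genes every 34kn control lay far above every 34kp control. SESN2, a leucine sensor that restrains mTORC1, gave 128, 122 and 129 CPM against 51.7, 53.6 and 58.01 CPM and -1.21 (SE 0.08, adjusted p = 2.81e-07). SLC7A5, the large neutral amino acid transporter, gave 383, 383 and 377 CPM against 172, 179.5 and 175 CPM and -1.12 (SE 0.07, adjusted p = 1.10e-07). The glycine transporter SLC6A9, which is in no list, was also among the 6 lower genes of smallest p, with -1.43 (SE 0.10, adjusted p = 6.17e-07). ATF4 itself, named after its value was seen, was lower at the RNA level, at -0.97 (SE 0.10, adjusted p = 1.50e-05). Without the first 34kn control ATF4 differed by -0.85 (adjusted p = 1.11e-06).

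ATF4 binds a composite C/EBP and ATF element with its partners. The element was searched as TGATGNAA on both strands in the 250 bases upstream of each RefSeq start of a gene (GRCh38.p14). Windows were found for 23 of the 29 listed genes, and a gene counted if any of its windows held a match. The element was present in 4 of the 23 (17.4%), namely ASNS, CHAC1, CEBPG and FGF21, and in 3.89% of all 27305 genes with a window. A match describes the letters of the window and is not evidence of binding. The windows of the 3 of these genes that were tested are shown, because all 3 were called lower in the 34kp controls. The element is in capitals, in CHAC1 on the opposite strand.
CHAC1 (chr15:40953221-40953470, plus strand): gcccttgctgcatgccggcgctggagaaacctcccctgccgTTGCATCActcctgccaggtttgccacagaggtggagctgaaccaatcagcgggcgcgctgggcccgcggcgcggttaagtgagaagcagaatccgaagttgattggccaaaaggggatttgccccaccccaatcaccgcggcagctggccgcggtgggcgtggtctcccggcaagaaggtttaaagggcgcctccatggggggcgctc
CEBPG (chr19:33373863-33374112, plus strand): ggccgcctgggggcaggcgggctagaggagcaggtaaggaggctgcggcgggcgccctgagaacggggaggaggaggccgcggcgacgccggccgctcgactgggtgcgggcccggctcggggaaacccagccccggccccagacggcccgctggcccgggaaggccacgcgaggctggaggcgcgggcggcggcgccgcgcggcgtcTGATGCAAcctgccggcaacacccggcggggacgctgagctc
ASNS (chr7:97872409-97872658, minus strand): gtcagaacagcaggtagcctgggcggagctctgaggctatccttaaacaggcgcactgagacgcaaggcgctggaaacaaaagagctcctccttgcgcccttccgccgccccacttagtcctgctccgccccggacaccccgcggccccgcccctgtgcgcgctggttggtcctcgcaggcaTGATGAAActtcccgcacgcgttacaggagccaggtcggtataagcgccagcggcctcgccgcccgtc

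The element ends 201 bases before the start in CHAC1, 34 bases before it in CEBPG and 60 bases before it in ASNS. CEBPG and ASNS have 2 windows each, and the distance is to the start that belongs to the window shown. ASNS makes asparagine, and its log2 fold change, under a name that joins it with pseudogenes and unnamed genes, was -0.40 (SE 0.07, adjusted p = 0.00116). CEBPG, a partner of ATF4 in binding, was lower, at -0.51 (SE 0.10, adjusted p = 0.00131). The gene of the 3 with the largest difference, CHAC1, is the one whose element lies farthest from the start of the window shown for it.

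The cytosolic tRNA synthetases, many of which ATF4 also drives, split. Of 19 tested, 11 were called lower and 3 higher, with a median of -0.20, and 7 were lower without the third 34kn control or without the first or second 34kp control. YARS1, for tyrosine, was lower, at -0.74 (SE 0.07, adjusted p = 6.05e-06), and CARS1, for cysteine, at -0.59 (SE 0.07, adjusted p = 5.78e-05), while RARS1, for arginine, was higher by 0.58 (SE 0.07, adjusted p = 9.29e-05).

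Genes of cholesterol synthesis and uptake were higher in the 34kp controls in greater part. These genes are driven together by SREBP2 when sterols in the endoplasmic reticulum are low. Of 22 tested members 12 were called higher and 5 lower, with a median of 0.32, and their summed level was 2899 to 3027 CPM in the 34kn controls and 3814 to 4135 CPM in the 34kp controls. INSIG1, which holds SREBP in the endoplasmic reticulum and is itself its target, was read at 207, 231 and 217 CPM against 699, 763 and 599.9 CPM. The difference was 1.66 (SE 0.09, adjusted p = 5.10e-08). HMGCS1, the synthase before HMG-CoA reductase, gave 111, 119 and 117 CPM against 391, 379.9 and 331 CPM and 1.67 (SE 0.08, adjusted p = 3.05e-08). In both genes all 34kp controls lay above all 34kn controls.

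The sterol oxidase MSMO1 differed by 1.29 (SE 0.10, adjusted p = 1.90e-06). The 5 lower members, named after their values were seen, were PMVK (-0.83), FDPS (-0.51), LSS (-0.44), ACAT2 (-0.21) and SREBF2 (-0.20), of which 3 were still lower with the GC trend removed. A second motif, TCACNCNAC, was searched upstream of the cholesterol genes in the same way as the ATF4 element. It was present in 3 of 18 with a window (16.7%), namely FDPS, HSD17B7 and SREBF2, and in 2.48% of all genes. FDPS and SREBF2 are among the lower members, against the lean of the list. Of 13 tested genes of fatty acid synthesis 6 were called higher and 2 lower.

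Of 20 tested hypoxia response genes 10 were called higher, 1 lower and 9 not called, with a median of 0.38. The summed level of the list did not follow that count: it was 1295 to 1592 CPM in the 34kn controls and 1226 to 1292 CPM in the 34kp controls. BHLHE40, a repressor of the clock and of differentiation, was read at 32.3, 32.6 and 34.1 CPM against 91.2, 106 and 98.1 CPM, a log2 fold change of 1.58 (SE 0.09, adjusted p = 5.26e-08). BNIP3L, a receptor for the removal of mitochondria, differed by 0.98 (SE 0.09, adjusted p = 6.05e-06) and EGLN3, an oxygen-sensing prolyl hydroxylase, by 0.93 (SE 0.09, adjusted p = 1.33e-05). The exception was DDIT4, an mTORC1 inhibitor that ATF4 also drives. It was read at 971, 658 and 774 CPM in the 34kn controls and 343, 411 and 376 CPM in the 34kp controls, a log2 fold change of -1.09 (SE 0.12, adjusted p = 4.40e-05). Without the first 34kn control DDIT4 differed by -0.93 (adjusted p = 1.91e-06). Glycolysis was split, with 6 higher and 6 lower among 18 tested: ENO2, an enolase, was higher by 1.36 (SE 0.12, adjusted p = 4.12e-06) and TPI1, triosephosphate isomerase, lower, at -0.49 (SE 0.08, adjusted p = 6.93e-04).

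Of 22 tested immediate early genes 10 were called lower and 3 higher. EGR1, a zinc finger factor that MAP kinase signalling switches on within minutes, was read at 54.2, 47.96 and 53.4 CPM in the 34kn controls and 9.65, 9.28 and 12.5 CPM in the 34kp controls. The groups lay far apart, with a log2 fold change of -2.31 (SE 0.12, adjusted p = 4.10e-08). IER2 differed by -0.98 (SE 0.09, adjusted p = 5.74e-06), ATF3, which ATF4 also drives, by -0.98 (SE 0.11, adjusted p = 2.85e-05), and ZFP36, which destabilises cytokine messages, by -1.07 (SE 0.18, adjusted p = 6.34e-04). SPRY4, a feedback inhibitor of the MAP kinase path, was lower, at -0.93 (SE 0.11, adjusted p = 6.54e-05), while of 15 tested MAPK feedback genes 4 were called lower and 1 higher, a share of calls no larger than the 37.8% over all genes.

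Of 16 tested STAT5 outputs 11 were called lower and 2 higher, with a median of -0.38. STAT5A was read at 533, 488 and 485 CPM against 247, 256 and 278 CPM, a log2 fold change of -0.94 (SE 0.07, adjusted p = 1.52e-06). SOCS2 and SOCS3, feedback inhibitors of JAK signalling, differed by -0.93 (SE 0.09, adjusted p = 6.86e-06) and by -1.11 (SE 0.14, adjusted p = 6.57e-05). NFKB1, the p50 subunit of NF-κB, was read at 27.7, 27.7 and 27.6 CPM against 11.3, 12.9 and 13.5 CPM, a log2 fold change of -1.14 (SE 0.10, adjusted p = 5.74e-06). Of 14 tested NF-κB and inflammatory genes 4 were called lower and 1 higher, a share of calls no larger than the 37.8% over all genes. CD69, a lectin induced on activation of blood cells, was lower, at -1.56 (SE 0.13, adjusted p = 3.52e-06).

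Heat shock chaperones and ribosomal proteins were lower in large part. Of 21 tested heat shock chaperones 15 were called lower and 1 higher, with a median of -0.31. AHSA1, the activator of HSP90, was read at 193, 168 and 182 CPM and 86.7, 89.8 and 104 CPM, a log2 fold change of -0.95 (SE 0.09, adjusted p = 6.05e-06), and HSPH1, an HSP110 exchange factor, differed by -0.71 (SE 0.09, adjusted p = 9.29e-05). Among 22 tested chaperones of the endoplasmic reticulum and genes of its unfolded protein response 7 were lower and 2 higher, and HSPA5 (BiP) was one of the higher, at 0.46 (SE 0.08, adjusted p = 5.13e-04).

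Ribosomal protein genes, for which near-identical processed pseudogenes can share reads, were lower in the 34kp controls in 25 of 28 small-subunit and 30 of 41 large-subunit genes, with 0 higher in either list and medians of -0.44 and -0.36. RPS28 was read at 871, 686 and 677 CPM against 364, 347 and 343 CPM, a log2 fold change of -1.08 (SE 0.09, adjusted p = 3.64e-06), and RPS21 differed by -1.05 (SE 0.09, adjusted p = 3.50e-06). The first 34kn control was the highest of the 6 libraries in 21 of the 28 and 37 of the 41 genes. RPL35 was read at 939, 568 and 573 CPM against 341, 344 and 369 CPM, a log2 fold change of -0.98 (SE 0.18, adjusted p = 0.00365). Without that library 27 small-subunit and 29 large-subunit genes were called lower, with medians of -0.38 and -0.29, and RPL35 differed by -0.70 (adjusted p = 1.45e-06).

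Of 38 tested nuclear genes of oxidative phosphorylation 24 were called lower and 1 higher, with a median of -0.47. The first 34kn control was the highest library in 30 of the 38. ATP5ME, a small subunit of ATP synthase, was read at 85.3, 43.03 and 56.6 CPM against 23.9, 21.8 and 25.2 CPM, a log2 fold change of -1.38 (SE 0.21, adjusted p = 8.31e-04). Without that library 23 were lower, with a median of -0.40, and ATP5ME differed by -1.08 (adjusted p = 1.15e-05). The mitochondrially encoded genes leaned the other way, with 8 of 12 called higher and 1 lower and a median of 0.45. MT-CO2, the second subunit of cytochrome oxidase, was read at 2464, 3335 and 3025 CPM against 4593, 4045 and 4265 CPM, a log2 fold change of 0.55 (SE 0.10, adjusted p = 8.26e-04). Without the first 34kn control MT-CO2 differed by 0.44 (adjusted p = 2.02e-04). The lower one was MT-ND3, at 378, 253 and 286 CPM against 139, 119.9 and 142 CPM, a log2 fold change of -1.19 (SE 0.13, adjusted p = 3.41e-05). Without the first 34kn control MT-ND3 differed by -1.01 (adjusted p = 1.06e-06).

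RN7SL1, the RNA of the signal recognition particle, which carries no poly(A) tail and was the largest fall by the naming rule, had 644, 179 and 225 counts in the 34kn controls and 1, 2 and 4 in the 34kp controls. With so few counts in the 34kp controls no fold is given. RN7SL1 has near-identical copies, and the first 34kn control held most of its counts.

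**Figure D3:**
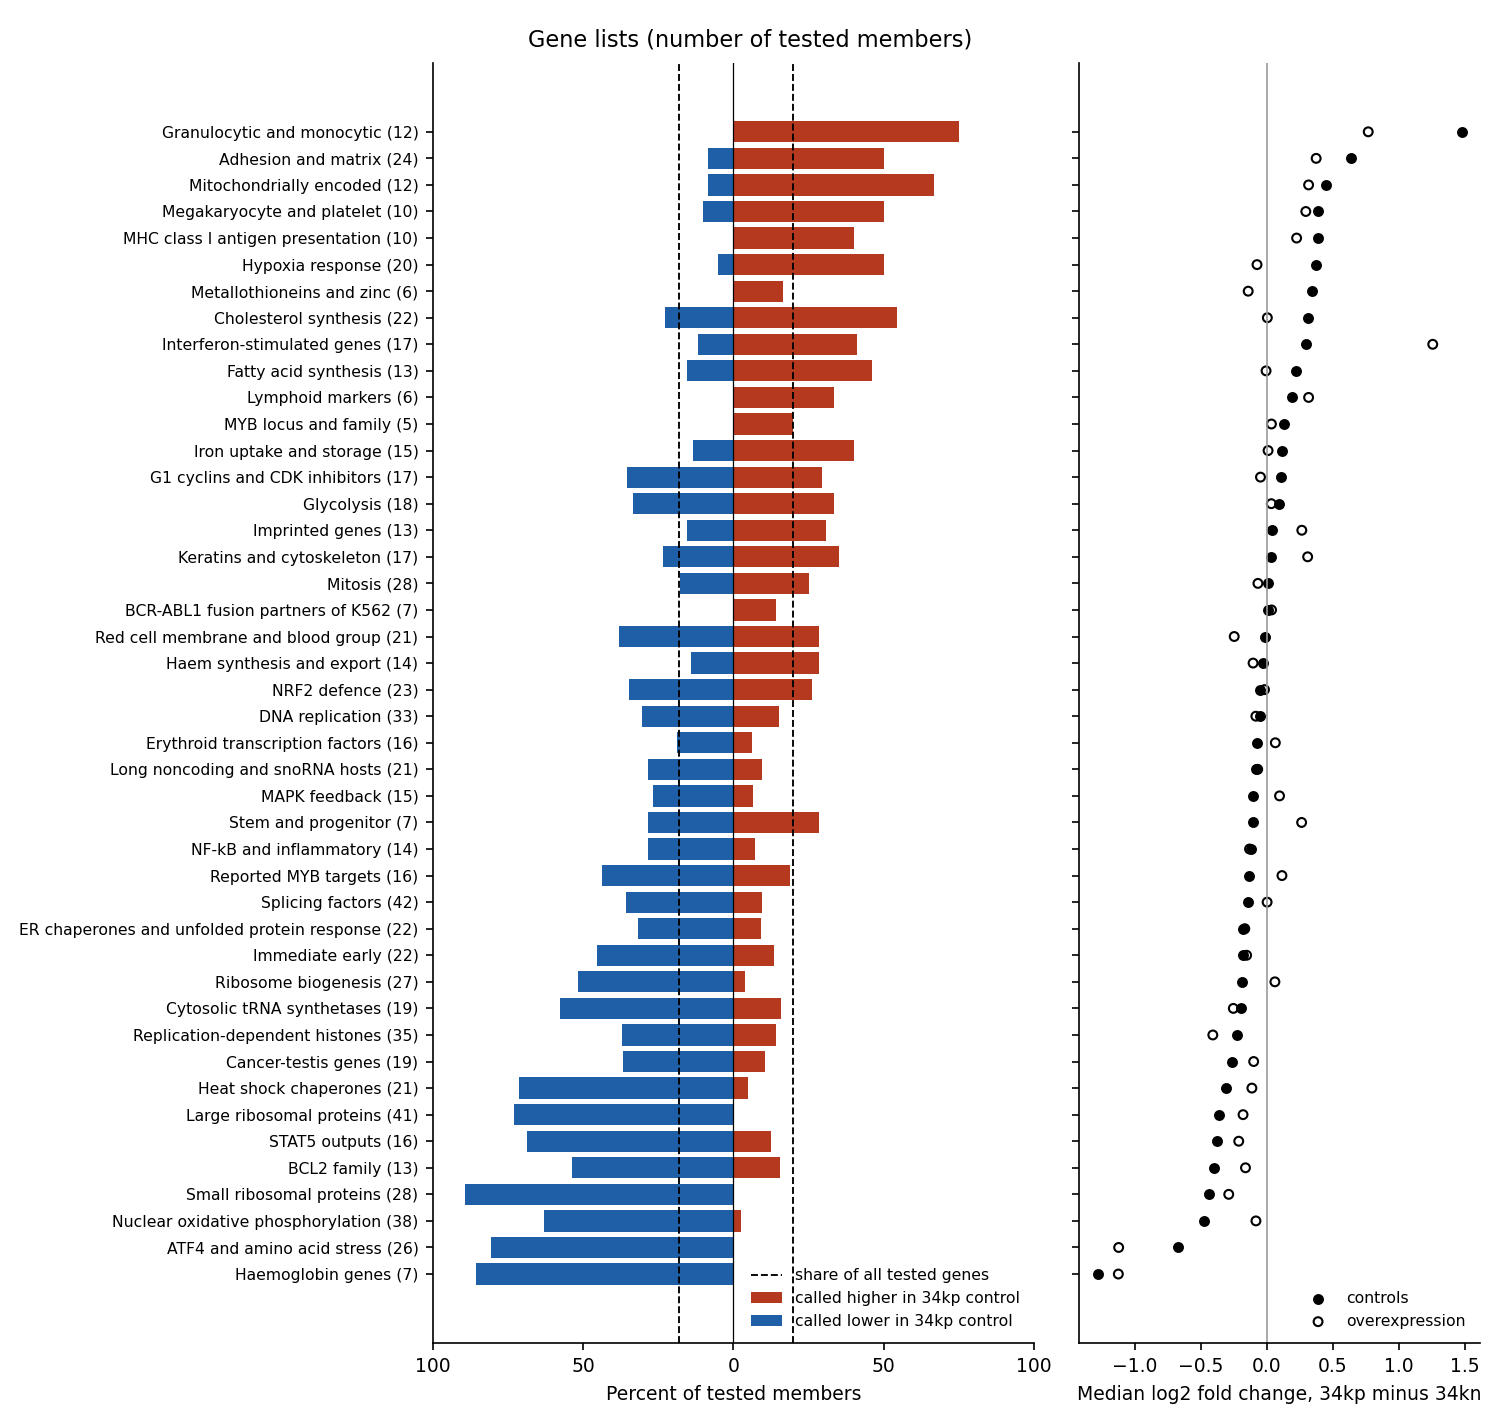
Share of the tested members of each gene list called higher (right) or lower (left) in the 34kp controls, and the list's median log2 fold change in the controls (filled) and between the overexpression groups (open); lists with fewer than 5 tested members are left out. Dashed lines mark the 19.7% and 18.1% of all tested genes called in each direction; the ATF4, haemoglobin and small ribosomal protein lists lie farthest to the left.

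Adhesion and matrix genes were higher in the 34kp controls in 12 of 24 tested, with 2 lower and a median of 0.64. The summed level of the list overlapped between the groups, at 1164 to 1240 CPM in the 34kn controls and 1226 to 1256 CPM in the 34kp controls. FN1, fibronectin, was read at 11.6, 15.5 and 13.3 CPM against 41.1, 42.9 and 36.2 CPM, a log2 fold change of 1.57 (SE 0.12, adjusted p = 1.28e-06). COL6A3, a chain of collagen VI, differed by 1.89 (SE 0.16, adjusted p = 3.87e-06) and SPARC, a matrix glycoprotein, by 1.12 (SE 0.14, adjusted p = 5.65e-05). VIM, the intermediate filament vimentin, was read at 119, 142 and 128 CPM against 437, 476 and 404 CPM, a log2 fold change of 1.76 (SE 0.09, adjusted p = 3.22e-08). Markers of other cells were low. Of 10 fibroblast markers 4 were tested, with COL1A1 higher and COL1A2, the other chain of type I collagen, lower at -0.85 (SE 0.12, adjusted p = 1.60e-04). The summed level of that list was 27.6 to 37.5 CPM in the 34kn controls and 40.9 to 41.8 CPM in the 34kp controls, and LUM and FAP, defining fibroblast genes, were at 0. Of 9 endothelial markers 2 were tested and PECAM1 was called higher, by 0.73 (SE 0.14, adjusted p = 0.00157), with CDH5 and EMCN at 0 and a summed level of 6.95 to 9.40 against 12.02 to 14.5 CPM. Of 12 epithelial and kidney line markers 4 were tested and 2 were higher, the sum being 73.8 to 83.2 against 91.8 to 95.2 CPM with KRT5, PAX2, CDH6 and ESRP1 at 0. Of 12 lymphoid markers 6 were tested and 2 were higher, the sum being 9.03 to 10.6 against 8.96 to 11.01 CPM with MS4A1 at 0. Neither the part of other cells in these differences nor that of the filter on low counts was tested.

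Interferon-stimulated genes were higher in 7 of 17 tested and lower in 2, with a median of 0.30. The summed level of the list went the other way. It was 1055 to 1097 CPM in the 34kn controls and 864 to 903 CPM in the 34kp controls. UBE2L6, the conjugating enzyme of ISG15, differed by 0.98 (SE 0.11, adjusted p = 3.00e-05), and IFITM3, an antiviral membrane protein, by 0.25 (SE 0.09, adjusted p = 0.0409), a call lost without any of 5 of the 6 libraries. Without the first or the third 34kp control 4 members of the list were called higher. Of 10 tested genes of MHC class I antigen presentation 4 were higher and 0 lower, and 1 or 2 were higher with any 1 library left out. With all 6 libraries 19.7% of all genes tested were called higher. The aldo-keto reductases AKR1C1, AKR1C2 and AKR1C3, targets of the antioxidant factor NRF2 that are closely similar in sequence, so that reads can be split between them, were higher by 1.32, 1.13 and 1.64 (adjusted p of 1.37e-07, 2.04e-06 and 1.08e-07). The NRF2 list as a whole was split, with 6 higher and 8 lower among 23 tested. CDKN1C, an imprinted inhibitor of cyclin-dependent kinases, was higher by 1.34 (SE 0.10, adjusted p = 9.52e-07), and DLK1, an imprinted Notch-like ligand, by 0.85 (SE 0.09, adjusted p = 2.07e-05). The zinc finger gene ZNF460 was read at 4.59, 6.32 and 6.89 CPM against 1.11, 0.945 and 1.45 CPM, a log2 fold change of -2.34 (SE 0.22, adjusted p = 9.39e-06).

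Cell division genes were called in both directions, where 19.7% of all genes tested were called higher and 18.1% lower. Of 33 tested DNA replication genes 5 were called higher and 10 lower, of 28 mitosis genes 7 and 5, and of 17 G1 cyclins and inhibitors 5 and 6. Of 35 tested replication-dependent histone genes, whose copies are near-identical, 5 were higher and 13 lower. With 1 library left out the mitosis genes called higher ran from 3 to 11, and the histone genes called lower numbered 8 without the third 34kn control or without the second or the third 34kp control. Ribosome biogenesis genes leaned lower, with 1 of 27 higher and 14 lower. BCL2 family genes and splicing factors also leaned lower. Of 13 BCL2 family genes 2 were higher and 7 lower, and of 42 splicing factors 4 were higher and 15 lower. Of 13 tested imprinted genes 4 were higher and 2 lower, and of 19 cancer-testis genes 2 and 7.

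The control cultures also differed in which parts of genes were read. Exon usage was tested on 221201 bins, asking whether a bin's log2 fold change differs from that of its gene, and 4476 bins were called. Of 11711 genes tested 1664 had a called difference (14.2%), and 816 of these were also called for their level. The files give no coordinates for bins, so their numbers were taken to follow the genome, in reverse for genes on the minus strand. On that assumption the bins of genes with at least 5 listed bins were split into 3 parts from start to end. In the first part 2082 bins were called and 1995 of these (95.8%) were relatively lower in the 34kp controls. In the last part 686 bins were called, of which 261 (38.0%) were lower. The share of a gene's counts in the first part averaged 20.3% to 23.9% in the 34kn controls and 18.4% to 19.3% in the 34kp controls over 6541 well-covered genes, and it was highest in the first 34kn control. These counts rest on single libraries: without the first 34kn control 463 bins of the first part were called, 80.3% of them lower, and without the first or second 34kp control 354 and 583. The genes called numbered 668 without the first and 3059 without the second 34kn control, and 390, 484 and 1011 without 34kp controls 1, 2 and 3 in turn.

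MYB was among the genes called, with an adjusted p of 0.0269 for exon usage. Of its 34 tested bins, out of 46 listed, 3 neighbouring ones of low number were called, 3, 4 and 5, near the gene start if bins are numbered along the genome. Bin 3 held 1.64%, 1.23% and 1.19% of the MYB counts in the 34kn controls and 0.645%, 0.718% and 0.754% in the 34kp controls, on 56 to 103 counts a library. Relative to the gene its log2 fold change was -0.64 (adjusted p = 0.0139). The groups did not overlap in any of the 3 bins. Bin 5, read with 207 to 299 counts a library, held 4.77%, 3.63% and 3.59% against 2.44%, 2.60% and 2.52%, a relative log2 fold change of -0.45 (adjusted p = 0.0247). The direction is that of most called bins in the first part of genes, and the part of that trend in the MYB result was not tested. The MYB call did not hold in every fit with 1 library left out: the adjusted p was 0.0204 and 0.00627 without the first and second 34kn control, 0.0791 without the third, and 0.277, 0.216 and 0.108 without 34kp controls 1, 2 and 3 in turn. The bin with the most counts, number 43, held 9.82%, 8.70% and 8.85% in the 34kn controls and 13.7%, 13.1% and 11.9% in the 34kp controls, and it was not called (relative log2 fold change 0.35, adjusted p = 0.0557). In the 34kn overexpression libraries bin 5 held 2.72% to 3.00%, and in the 34kp overexpression libraries 1.83% to 3.34%. MYB lies on chromosome 6 at positions 135181315 to 135219173 of GRCh38 on the plus strand.

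**Figure D4:**
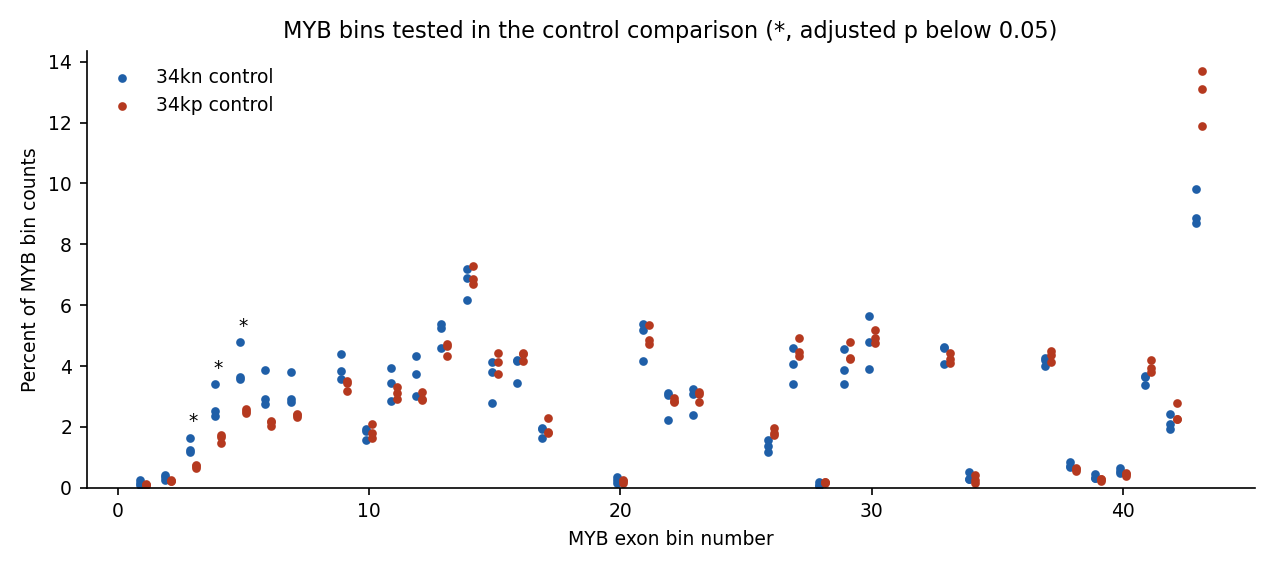
Share of the MYB bin counts held by each of the 34 tested bins in the 3 libraries of each control group; bin numbers are taken to run from the gene start, and asterisks mark the called bins 3, 4 and 5. In bin 3 the 34kn controls lie at 1.19% to 1.64% and the 34kp controls at 0.645% to 0.754%.

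Outside MYB, the strongest exon usage calls among named single genes were in STAT3, ACSM3, GAPDH, PRKAR2B, ILF2, VEGFA, ATRAID and TBL3, and each of the 8 was called with any 1 library left out. STAT3, a signal transducer downstream of cytokine receptors, was not called for its level (0.07, adjusted p = 0.463), but 30 of its 57 tested bins were called, 7 relatively higher and 23 lower. Its bin 23 held 0.602%, 0.763% and 0.690% of the counts of the tested bins in the 34kn controls and 2.41%, 2.45% and 2.15% in the 34kp controls. The relative log2 fold change was 1.22 (adjusted p = 1.35e-12). VEGFA, the angiogenic growth factor, was also not called for its level (0.12, adjusted p = 0.224), and its bin 41 of 45 rose from 0.613%, 0.681% and 0.959% to 2.46%, 2.71% and 1.95%. In PRKAR2B, a regulatory subunit of protein kinase A, bin 1 held 14.7%, 7.45% and 7.75% against 3.98%, 4.08% and 4.86%, with the first 34kn control far above the rest. Of 42 tested splicing factors 15 had a called difference in their own exon usage, against 14.2% of all genes tested for it. The genes were not matched for level or number of bins, and no count with a library left out is given for the list.

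The overexpression libraries offer a second comparison of the same experiments that shares no library with the controls, though their groups also differ in the eRNA overexpressed. Between them 3983 of 16293 genes were called (24.4%), 2163 higher in the 34kp experiment (13.3%) and 1820 lower (11.2%). Of the 16000 genes tested both ways, 6109 were called in the controls, 3944 in the overexpression libraries and 2320 in both. In 2223 of these the direction was the same, which is 36.4% of the control calls and 56.4% of the overexpression calls, and in 97 it was opposite. Without any 1 of the 34kn overexpression libraries, or without the second of the 34kp ones, 2271 to 2453 genes were called between these groups. Of the control calls, 83.2% had the same sign in the overexpression libraries. Across the 16000 genes, which are not independent replicates, both sets of fold changes had a Pearson correlation of 0.62 and a Spearman correlation of 0.53.

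Some of the large differences of the controls were there again, and others were not. Between the overexpression groups TCN1 differed by 3.54 (SE 0.26, adjusted p = 4.39e-06), MS4A3 by 3.37 (SE 0.17, adjusted p = 1.71e-07), HBA1 by -1.54 (SE 0.23, adjusted p = 6.53e-04) and GDF15 by -1.80 (SE 0.10, adjusted p = 4.73e-07). HBA2, with which HBA1 can share reads, differed by only -0.42 (SE 0.10, adjusted p = 0.00897), against -1.36 in the controls. Not called there were MSMO1 (0.10, adjusted p = 0.563), BNIP3L (0.11, adjusted p = 0.51) and IER2 (-0.19, adjusted p = 0.183). Nor were ZFP36 (-0.09, adjusted p = 0.713) and RHD (0.04, adjusted p = 0.826). Of 26 tested ATF4 genes 24 were lower and 0 higher, with a median of -1.12. Of 10 granulocytic and monocytic genes that passed the filter there 6 were higher and 0 lower, and of 7 haemoglobin genes 6 were lower and 1 higher. In 8 lists the balance of calls leaned the other way than in the controls, a contrast not tested for the lists. Of 20 hypoxia genes 2 were higher and 7 lower, of 27 ribosome biogenesis genes 6 and 1, of 42 splicing factors 10 and 6, and of 28 mitosis genes 1 and 8. The others were haem synthesis (0 and 3), erythroid transcription factors (6 and 3), NRF2 defence (5 and 4) and long noncoding and snoRNA hosts (6 and 3). Of 17 interferon-stimulated genes 13 were higher and 0 lower, with a median of 1.26, against 7 and 2 in the controls.

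**Figure D5:**
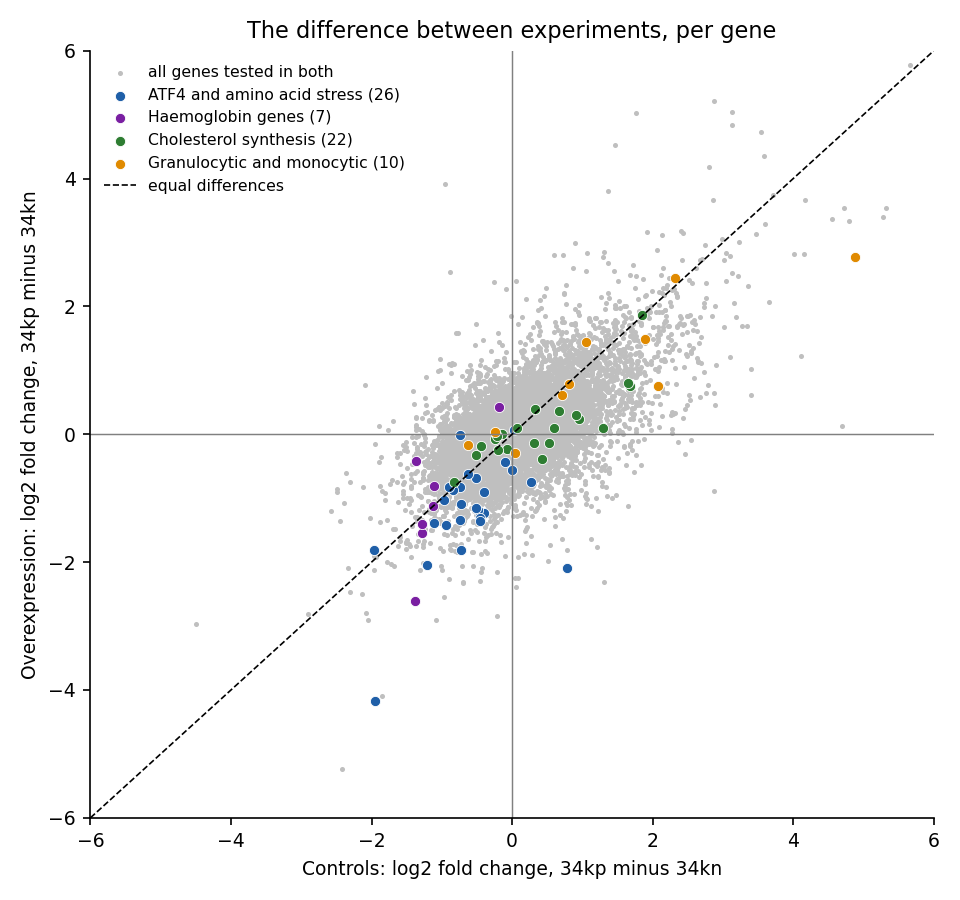
Log2 fold changes between the experiments for the 16000 genes tested in both, in the controls (horizontal) and between the overexpression groups (vertical), with 4 gene lists coloured; 1 gene lies outside the axes. Most ATF4 and haemoglobin members lie at lower left, with list medians of -0.67 and -1.28 in the controls, and the cholesterol genes have a median of 0.32 in the controls and 0.00 between the overexpression groups.

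Whether a gene differed by the same amount in both was asked with an interaction term fitted to the 12 libraries. It was called in 1102 of 17323 genes (6.36%), and in 746 of the 6109 genes called in the controls (12.2%). With 1 library left out the total ran from 380 to 2747, and it moved by less than 1.5 times only without the third 34kp control (850). EGR1 is 1 of them. Its levels of 39.99, 41.4 and 44.00 CPM with 34kn overexpressed and 29.1, 24.4 and 21.3 CPM with 34kp overexpressed were closer together than those of the controls. CHAC1 is another, at 53.4, 56.5 and 55.8 and 4.24, 1.94 and 2.95 CPM, farther apart than in the controls. INSIG1, at 233, 242 and 233 and 387, 404 and 437 CPM, again lay closer together.

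The size of the control difference can be set beside the effect of each eRNA within its experiment, with the caution that these comparisons share the control libraries. With 34kn overexpressed against its control, 0 of 16116 genes were called (0%) by edgeR, 3759 had an unadjusted p below 0.05, and DESeq2 called 1241. Without the first or the second 34kn control edgeR called 447 and 2982. With 34kp overexpressed against its control 392 of 16662 were called (2.35%), 105 higher and 287 lower, and DESeq2 called 879. Leaving out 1 library at a time gave 46 to 1175 calls, the lowest without the second 34kp control and the highest without the third overexpression library. For TCN1 the log2 fold change was 5.33 between the controls, 1.06 with 34kn and -0.72 with 34kp. For MS4A3 the same 3 values were 4.55, 0.41 and -0.77, and for SESN2 -1.21, 0.15 and -0.69. For MYB they were 0.13, 0.17 and 0.07, and none of the 3 was called.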

How the data were processed

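RNA-seq reads of 12 K562 libraries in 4 groups of 3 were used, 6 of them controls. The authors deposited unnormalized read counts per exon bin. The submitters' processing notes name Trimmomatic 0.93, STAR 2.7.10a and the GRCh38 build. The counter, annotation release and strand setting are not given in the sources used here, so overlapping and antisense genes cannot be told apart. Of 685251 bins, 121224 belong to 2582 names that join several genes. Bins were summed per name, and the 5 special lines (reads in no bin, ambiguous or of low quality) were left out of totals.

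The summed counts went into edgeR 4.0.16 (R 4.3.3). Scaling was by TMM, low genes were dropped by filterByExpr (minimum count 10), and tests were robust quasi-likelihood fits and Benjamini-Hochberg adjustment, fitted within each comparison's libraries and on all 12 for the difference of differences. Exon usage was tested per bin with diffSpliceDGE and combined per gene by Simes' method. Alternatives used DESeq2 1.42.0, limma 3.58.1, other scalings and filters, GC trend removal and left-out libraries. The scripts were tested on simulated data. GC content was matched for 85.9% of genes tested.

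Genes were named by rule among called single-gene names with groups that do not overlap and at least 5 CPM in 1 group: the 12 largest differences and 6 smallest adjusted p each way, up to 4 members of each of 47 lists, MYB, HBS1L and AHI1, and 8 genes for exon usage. Members and lists were chosen with earlier results of these data known. Promoter sequences are from RefSeq. Not every gene that the rule names is reported here.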

Additional observations from a re-analysis of the deposited data

Results flagged for a closer look

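Of the 87 genes whose levels are reported by gene, 38 differed between the experiments by another amount in the controls than in the overexpression libraries, by edgeR's test of the difference of differences over all 12 libraries (adjusted p of 2.69e-05 to 0.0492). In 37 of the 38 both differences had the same sign, and in 27 the control difference was the larger in size. The values below are the control log2 fold change minus that of the overexpression libraries. Each also holds the effects of the eRNAs overexpressed, which cannot be told apart from a change of the cultures between groups.

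Among the genes that were higher in the 34kp controls, the value was 1.79 for TCN1, 1.46 for CD24, 1.18 for MS4A3, 1.34 for LRP1, 1.19 for FN1 and 0.50 for VIM. It was 0.92 for HMGCS1, 0.86 for INSIG1 and 1.19 for MSMO1 among cholesterol genes, and 0.98 for BHLHE40, 0.88 for BNIP3L and 0.66 for EGLN3 among hypoxia genes. It was 0.70 for AKR1C3, 0.52 for AKR1C1, 0.56 for AKR1C2, 0.37 for SLC25A37 and 0.66 for RHD. For HSPA5 it was 0.78, and HSPA5 was the 1 gene of the 38 whose differences had opposite signs. HSPA5 differed by 0.46 in the controls and by -0.32 between the overexpression groups (adjusted p = 0.00925 by edgeR). For ITGA2B (-0.74), IFITM3 (-0.71) and DLK1 (-0.50) the overexpression difference was the higher.

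Among the genes that were lower in the 34kp controls, ATF4-list and related genes had positive values, the overexpression difference being the more negative: 2.23 for CHAC1, 0.84 for SESN2, 0.27 for SLC7A5, 0.83 for the name that holds ASNS, 0.65 for CEBPG, 0.38 for CARS1, 1.82 for DDIT4 and 1.57 for ATF3. The value was negative for EGR1 (-1.56), IER2 (-0.78), ZFP36 (-0.97), SPRY4 (-0.60), STAT5A (-0.61), NFKB1 (-0.48), MYC (-0.36), HBA2 (-0.94) and MT-ND3 (-0.67), whose control difference was the more negative.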

How the results depend on the processing

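The control count of 6263 stayed within 1.5 times under all alternatives run except the test against a fold of 1.2 (3016), and ran from 4405 to 6792 with 1 library left out. With upper quartile scaling 58.6% of the calls were higher in the 34kp controls, against 52.1%. The overexpression count ran from 2271 to 5060 with 1 library left out. For 34kn overexpression against its control, no filter gave 1572 calls, DESeq2 1241, and left-out libraries 0 to 2982. For 34kp overexpression against its control these were 997, 879 and 46 to 1175, and for the difference of differences 2085, 2011 and 380 to 2747. Exon usage was called in 3858 genes by a gene-level F test and in 390 to 3059 with 1 library left out. ETV1, lower in the 34kp controls, was at 0.12 (adjusted p = 0.626) by its highest bin. With the highest bin standing for each gene, 77 of the list results stayed the same, 32 moved, 24 were weaker and 8 stronger. The causes were not tested.

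Same-numbered control libraries did not deviate together (correlations across genes of -0.12, -0.01 and 0.01). With 3 libraries a group this cannot exclude a pairing by number. Controls were not checked in this way against the overexpression libraries of their own experiment. With the replicate number as a block, 4902 genes were called between controls, 3306 between overexpression groups, 0 and 71 for the 34kn and 34kp overexpression effects, 651 for the difference of differences and 603 for exon usage.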
